A study of Mus musculus with 2 samples.

Results

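The genes described here are 10 genes expressed by intestinal T lymphocytes: the T cell receptor chains Cd3e, Cd3g and Cd247, the coreceptors Cd8a, Cd8b1 and Cd4, the kinase Lck, the granzymes Gzma and Gzmb, and the integrin Itgae. They were taken by symbol, from a list made with earlier results of these data known. All 10 were found among the 18919 genes of the series table. RNA came from whole intestine of C57BL/6 mice at 2 months of age, in 2 pools. The Setd2 KO pool carried the APCmin allele together with Setd2IEC-/-, a deletion of Setd2 in intestinal epithelial cells, and the control pool carried APCmin alone, so that every mouse studied had the tumour-prone Apc mutation. Setd2 encodes the methyltransferase that places the trimethyl mark on lysine 36 of histone H3. The labels place the deletion in intestinal epithelial cells, and what drives it is not given in the sources used here. Each pool mixed the RNA of 3 littermates and gave 1 library, so differences between mice cannot be seen, no difference below has a replicate check, and no p-value or standard error was computed.

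T cells that sit between the epithelial cells of the gut are among the largest T cell populations of the mouse. Many carry CD8, either as pairs of alpha chains or as an alpha chain paired with a beta chain, and hold granzymes ready in their granules. The T cell receptor signals through the CD3 chains and the zeta chain, which the kinase LCK phosphorylates, while integrin alpha E binds E-cadherin on epithelial cells and keeps the T cells in the epithelium. The RNA is from whole tissue, so T cells of the lamina propria and of lymphoid follicles enter the same values, and a smaller number of T cells cannot be told apart from less RNA per T cell.

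The libraries held 8646358 expected counts in the Setd2 KO pool and 8809678 in the control pool. Setd2 was at 3.47 FPKM (fragments per kilobase of transcript, scaled to the mapped total) in the Setd2 KO pool and 6.87 in the control pool, in the direction of the labels. The ratio of its scaled counts was 0.504 (95% counting interval 0.432 to 0.587). Transcripts of acinar pancreas and red cell genes were higher in the Setd2 KO pool, and their source was not tested. At least 2-fold higher were 12 of 12 acinar pancreas genes and 4 of 4 measured red cell genes, against 2.78% of all measured genes. Pancreas genes made up 0.263% of all counts in the Setd2 KO pool, against 0.00709% in the control pool, and red cell genes 0.0142% in the Setd2 KO pool, against 0.00395% in the control pool. Counting intervals, used throughout, are exact Clopper-Pearson intervals of the Setd2 KO pool's share of a gene's counts, and cover counting error only.

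For 7 of the 10 genes RefSeq gave a promoter window on GRCm38.p6 (the mm10 assembly), from 250 bases before to 50 after a transcription start, and for Lck it gave a window for each of 2 starts. The 4 windows printed belong to the 3 genes whose counting intervals excluded 1, as described further on: Cd247 and Lck, which lay farthest apart, and Gzma, the most abundant. Each is written 5′ to 3′ on the gene's strand. Capitals mark 3 motifs on either strand: AGGAAG, the core of sites for ETS factors, TGTGGT, the core of sites for RUNX factors, and CAGGTG, an E-box read by E proteins.
Cd247, chr1:165788431-165788730, plus strand: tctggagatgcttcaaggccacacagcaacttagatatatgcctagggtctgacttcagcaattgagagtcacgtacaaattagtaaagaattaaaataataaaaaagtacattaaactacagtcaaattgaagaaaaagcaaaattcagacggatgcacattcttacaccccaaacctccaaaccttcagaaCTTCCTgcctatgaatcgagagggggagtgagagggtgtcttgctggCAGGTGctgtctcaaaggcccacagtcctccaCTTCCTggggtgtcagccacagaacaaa
Lck, upstream start, chr4:129573592-129573891, minus strand: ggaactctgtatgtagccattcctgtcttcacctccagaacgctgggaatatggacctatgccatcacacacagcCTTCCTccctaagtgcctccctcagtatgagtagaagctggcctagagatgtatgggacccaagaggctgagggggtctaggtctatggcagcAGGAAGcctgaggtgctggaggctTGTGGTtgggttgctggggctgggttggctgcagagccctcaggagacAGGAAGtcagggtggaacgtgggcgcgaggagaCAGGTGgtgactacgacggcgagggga
Lck, downstream start, chr4:129558323-129558622, minus strand: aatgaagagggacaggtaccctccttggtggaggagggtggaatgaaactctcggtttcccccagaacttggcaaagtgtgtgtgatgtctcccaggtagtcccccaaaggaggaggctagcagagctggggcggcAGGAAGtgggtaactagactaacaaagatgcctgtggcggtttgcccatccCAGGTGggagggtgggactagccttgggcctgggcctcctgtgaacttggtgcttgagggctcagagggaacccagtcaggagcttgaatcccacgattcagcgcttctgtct
Gzma, chr13:113100932-113101231, minus strand: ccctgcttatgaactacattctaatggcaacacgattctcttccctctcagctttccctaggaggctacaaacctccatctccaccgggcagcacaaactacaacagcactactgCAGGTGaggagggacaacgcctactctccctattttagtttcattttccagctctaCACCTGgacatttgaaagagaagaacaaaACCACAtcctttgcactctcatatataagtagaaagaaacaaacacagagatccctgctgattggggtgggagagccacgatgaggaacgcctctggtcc

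The E-box CAGGTG was present in 6 of the 8 windows of these genes, against 20.2% of all 32851 windows in the RefSeq table. AGGAAG was present in 4 of the 8 windows, against 35.4% of all windows, and TGTGGT in 3 of 8, against 16.8%. The matches did not overlap each other. The upstream Lck window held AGGAAG 3 times, and the Cd247 window held it 2 times, as did that of Cd3e. Such matches describe letters in a window and not bound sites. Gene-level counts sum over transcripts, so the share of Lck RNA from each start was not measured.

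Levels of the 10 genes spanned a wide range within each library, with Gzma, Gzmb and Cd3g highest and Cd4 and Cd8b1 lowest in both. Gzma, the trypsin-like granzyme A, was the most abundant, at 127.95 FPKM in the Setd2 KO pool and 108.35 in the control pool. Gzmb, granzyme B, which cleaves after aspartate and activates caspases in target cells, followed, at 30.56 FPKM in Setd2 KO and 31.35 in control. Gzma thus stood above 94.95% of the measured genes in the Setd2 KO pool and above 94.1% in the control pool. Cd8b1, the CD8 beta chain, was the least abundant, at 1.5 FPKM in the Setd2 KO pool and 1.97 in the control pool. The other 7 genes lay between 4.64 and 13.80 FPKM in the Setd2 KO pool and between 3.75 and 13.43 in the control pool. In the Setd2 KO pool, exact Poisson intervals of the FPKM level (95%, counting error only) overlapped between each gene and the next in the run Itgae, Cd8a, Cd3e, Cd247, Lck and Cd4. In the control pool they overlapped in the run Cd8a, Itgae, Lck and Cd3e and between Cd247 and Cd4. Neighbours within these runs are therefore not resolved from each other, though genes farther apart in a run can be: in the Setd2 KO pool the interval of Itgae (8.37 to 10.5) lay above that of Cd4 (3.86 to 5.53). The intervals of Gzma, Gzmb and Cd3g did not meet those of the next gene in either pool. Together the 10 genes had 2430 counts in the Setd2 KO pool and 2297 in the control pool, a ratio of 1.08 (1.02 to 1.14), of which Gzma alone gave 39.0% in Setd2 KO and 35.6% in control.

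**Figure D1:**
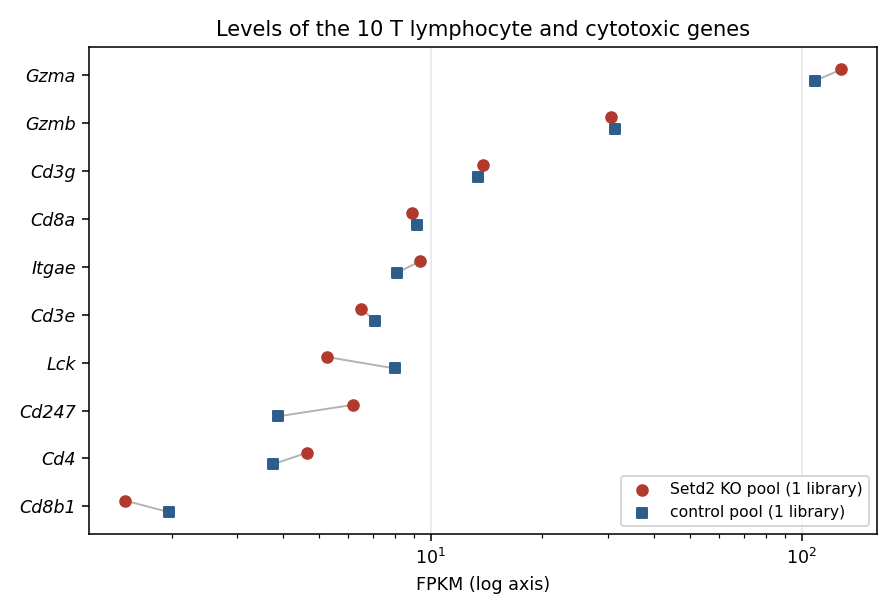
Level of each of the 10 genes in FPKM (log axis) in the Setd2 KO pool (circles, drawn slightly above) and the control pool (squares), 1 library each, ordered by mean level. Symbols of the same gene lie close together except for Lck, at 5.24 FPKM in Setd2 KO and 8 in control, and Cd247, at 6.17 in Setd2 KO and 3.88 in control.

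None of the 10 genes differed by 2-fold between the pools. A gene was counted as past 2-fold when the log2 ratio of (FPKM + 1), Setd2 KO over control, was at least 1 or at most -1. By that rule 0 of the 10 were higher and 0 lower, while among 13253 measured genes (FPKM of 1 or more in at least 1 library) 2.78% were higher and 1.28% lower. The log2 ratios of the 10 genes ran from -0.53 for Lck to 0.56 for Cd247, with 5 above 0 and 5 below 0. Their median was 0.0004, against 0.08 over all measured genes. The counting interval lay above 1 for 2 of the 10 genes, Cd247 and Gzma, and below 1 for 1, Lck. Over all measured genes these shares were 28.0% above and 12.5% below, so neither count stands out from the background. With the counts scaled by their upper quartile in place of the library total, the split over all genes was 2422 above and 2670 below in place of 3710 and 1663, and with the median ratio it was 2627 and 2465.

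Cd3e and Cd3g encode CD3 chains, which carry signalling motifs of the receptor, and the counting intervals of both included 1. Cd3e (mm10 chromosome 9, 44998735 to 45009663) was at 6.49 FPKM in the Setd2 KO pool, from 80 counts, and 7.08 FPKM in the control pool, from 89. Cd3g, the gamma chain (chromosome 9, 44969572 to 44980431), reached 13.80 FPKM in Setd2 KO and 13.43 in control, from 120 counts in Setd2 KO and 119 in control. The count ratios were 0.916 for Cd3e (0.669 to 1.25) and 1.03 for Cd3g (0.791 to 1.34), and the sign of the Cd3g difference turned under median-ratio scaling, with a log2 ratio of -0.04. Both intervals exclude a 2-fold difference in either direction. Cd3d, the delta chain, lies between them on chromosome 9, with 1337 bases to Cd3g and 11682 to Cd3e. It was at 4.78 FPKM in the Setd2 KO pool and 6.60 in the control pool, with a ratio of 0.724 (0.505 to 1.04).

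Cd247, which encodes the zeta chain that completes the receptor complex, had the highest ratio of the 10 genes. It was at 6.17 FPKM in the Setd2 KO pool and 3.88 in the control pool, from 113 counts in Setd2 KO and 74 in control. The ratio of 1.56 had a counting interval of 1.15 to 2.11, which stayed above 1 under upper-quartile scaling (1.07 to 1.97). Relative to Cd3e, Cd247 was 1.70-fold higher in the Setd2 KO pool (1.09 to 2.65), in a comparison chosen after the values were seen. Its place in the genome may limit this value: on chromosome 1 the 3′ part of Cd247 overlaps Pou2f1 on the opposite strand. Of the 5329 exonic bases of Cd247 in GENCODE M21, over all its transcripts, 3007 are also exonic in Pou2f1. The authors' length for Cd247 was shorter, at 2115 nt in the Setd2 KO pool and 2162 nt in the control pool. Whether the transcripts they counted hold the shared bases was not examined. Whether the reads were counted by strand is not given in the sources used here. Pou2f1, which encodes the transcription factor OCT1, was at 1.98 FPKM in the Setd2 KO pool and 1.83 in the control pool, with a ratio of 1.08 (0.892 to 1.31). Whether reads of Pou2f1 entered the Cd247 value, and how many, was not tested.

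Lck, the kinase that starts T cell receptor signalling by phosphorylating the CD3 and zeta chains, was the lowest of the 10 in ratio. It was at 5.24 FPKM in the Setd2 KO pool and 8 in the control pool, from 96 counts in Setd2 KO and 149 in control. The ratio of 0.656 (0.503 to 0.854) lay below 1 when counts were scaled to library totals, the upper quartile or the median ratio, with 0.610 (0.467 to 0.794) at the upper quartile. Scaled to the summed pan-leukocyte counts, which were themselves lower in the Setd2 KO pool, it was 0.835 with an interval of 0.639 to 1.09, which includes 1. Against Cd3e, however, the ratio of Lck was 0.717 with an interval of 0.473 to 1.09, which includes 1. Set against Cd247 it was 0.422, with an interval of 0.280 to 0.634, which excludes 1. Both comparisons were chosen after the values were seen. The second takes the highest and the lowest of the 10 genes, so its interval, made for a pair set in advance, is too narrow. Lck (chromosome 4, 129548344 to 129573641) shares exonic bases only with Mir8119, by 25 bases.

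**Figure D2:**
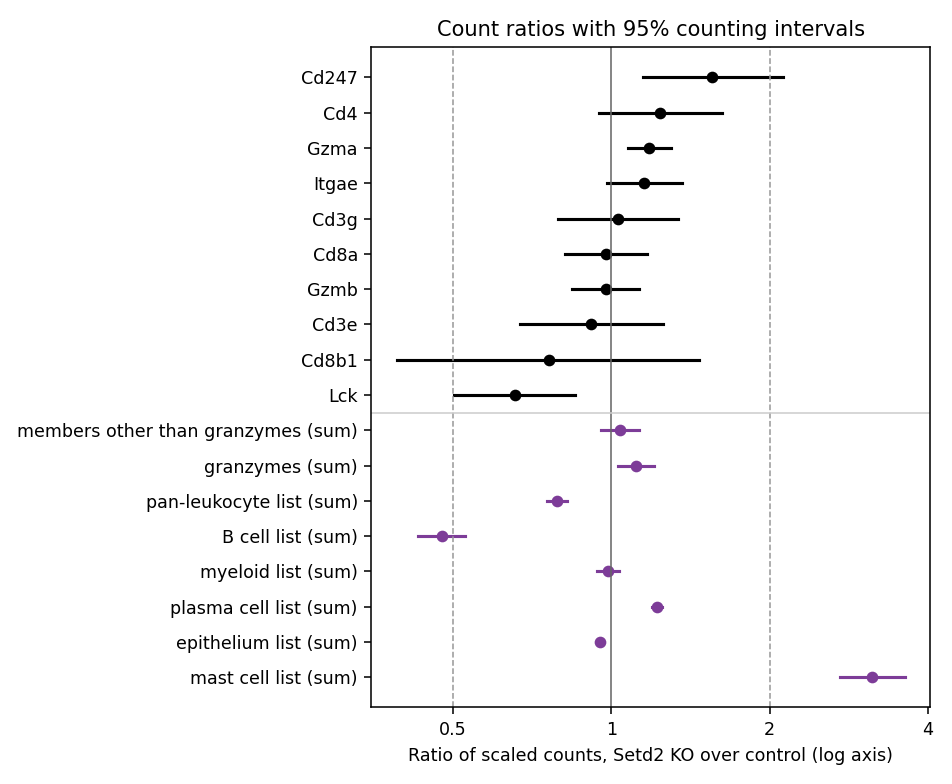
Ratio of counts scaled to library totals, Setd2 KO over control (log axis), with 95% counting intervals, for the 10 genes (black) and for summed counts of gene lists (purple); the solid line marks equal levels and dashed lines 2-fold. The interval of Cd247 (1.15 to 2.11) and that of Lck (0.503 to 0.854) lie on opposite sides of 1, and the B cell sum lies at 0.476.

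The counting intervals of all 3 coreceptors included 1. Cd8a, the chain present in every CD8 molecule (chromosome 6, 71373427 to 71379171), was at 8.92 FPKM in the Setd2 KO pool and 9.18 in the control pool, from 243.18 counts in Setd2 KO and 254 in control, giving a ratio of 0.975 (0.814 to 1.17). Cd8b1, which marks conventional CD8 T cells and is absent from the alpha-alpha form, gave 18.25 counts in Setd2 KO and 24.45 in control, a ratio of 0.761 (0.391 to 1.47). At this depth a 2-fold decrease of Cd8b1 would not be detectable. Per length, Cd8a RNA was 5.95 times as abundant as Cd8b1 RNA in the Setd2 KO pool and 4.66 times in the control pool, and the interval of the change in that relation (0.645 to 2.56) includes 1. Cd4, the coreceptor of helper and regulatory T cells, which some macrophages and other innate cells also express, was at 4.64 FPKM in the Setd2 KO pool and 3.75 in the control pool. Its ratio was 1.24 (0.945 to 1.62), and Cd8a changed relative to Cd4 by 0.788 (0.568 to 1.09).

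The granzymes had more counts than the other members in both libraries. Gzma (chromosome 13, 113093824 to 113100981) had 949 counts in the Setd2 KO pool and 819 in the control pool, giving a ratio of 1.18 (1.07 to 1.30). That interval reached 0.999 under upper-quartile scaling. Gzmb (chromosome 14, 56258836 to 56262334) had 372 counts in the Setd2 KO pool and 388.99 in the control pool, a ratio of 0.974 (0.843 to 1.13). The relation of Gzma to Gzmb was 1.21-fold higher in the Setd2 KO pool (1.02 to 1.44), a value that no scaling of the libraries can move. Relative to Cd3e, the ratio was 1.29 for Gzma (0.928 to 1.79) and 1.06 for Gzmb (0.752 to 1.51), with intervals that include 1. Both granzymes summed gave a ratio of 1.11 (1.03 to 1.21). Granzymes as a sum changed against the other 8 genes by 1.07 (0.956 to 1.21), in a comparison not set in advance.

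Itgae, integrin alpha E or CD103 (chromosome 11, 73090505 to 73147449), was at 9.38 FPKM in the Setd2 KO pool and 8.12 in the control pool, from 314 counts in Setd2 KO and 277 in control. Its ratio was 1.15 (0.980 to 1.36), and against Cd8a it was 1.18 (0.926 to 1.52). Itgb7, the beta 7 chain that pairs with alpha E, was at 7.43 FPKM in Setd2 KO and 7.24 in control, giving a ratio of 1.02 (0.826 to 1.27). The ligand differed more: Cdh1, which encodes E-cadherin, was at 159.41 FPKM in the Setd2 KO pool and 123.01 in the control pool, a ratio of 1.30 (1.25 to 1.35). Itgb7 and Cdh1 were picked after their values were seen.

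Other genes of T cell receptor signalling included none past 2-fold. Of 26 listed genes in the table, 18 were measured, and 0 were at least 2-fold higher or lower. The median log2 ratio was -0.01, against 0.08 over all measured genes, and 8 were above 0 and 10 below. Txk, a kinase of the TEC family, was at 1.74 FPKM in the Setd2 KO pool and 0.77 in the control pool, from 33 counts in Setd2 KO and 16 in control, giving a ratio of 2.10 (1.12 to 4.09). It was the only gene of the list with an interval above 1, while 28.0% of all measured genes had one. Lat, the adaptor that LCK and ZAP70 signal through, was at 4.92 FPKM in Setd2 KO and 6.71 in control, with a ratio of 0.734 (0.507 to 1.05), and Cd5, an inhibitor of receptor signalling, at 0.73 FPKM in Setd2 KO and 1.26 in control, with a ratio of 0.576 (0.268 to 1.19). Thy1, a surface protein of T cells, was at 5.16 FPKM in Setd2 KO and 4.09 in control, with a ratio of 1.26 (0.893 to 1.79). Zap70, which binds the phosphorylated zeta chain, shows how the length term moves an FPKM. It was at 4.34 FPKM in the Setd2 KO pool and 3.58 in the control pool, from 69 counts in Setd2 KO and 71 in control. The authors' table gives it a length of 1840 nt in the Setd2 KO pool and 2247 nt in the control pool, which sets the FPKM apart while the counts are close. It was picked with its values known.

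Among the other cytotoxic genes, 16 of 28 were measured and 0 were past 2-fold, with a median log2 ratio of 0.08. The counting interval was above 1 for 3 and below 1 for 1, against 28.0% above and 12.5% below over all measured genes. Ccl5, a chemokine that cytotoxic T cells release with their granules, was at 109.55 FPKM in the Setd2 KO pool and 80.42 in the control pool, from 524 counts in Setd2 KO and 392 in control, giving a ratio of 1.36 (1.19 to 1.56). The other genes with an interval above 1 were the receptor Cd244, with a ratio of 1.46, and Unc13d, which primes granules for release, with 1.38, both picked with their values known. Lamp1, a lysosomal membrane protein present in most cells, was at 262.73 FPKM in the Setd2 KO pool and 281.17 in the control pool, a ratio of 0.934 (0.899 to 0.971). Fasl, the death ligand, was at 1.10 FPKM in the Setd2 KO pool and 0.54 in the control pool, from 18 counts in Setd2 KO and 9 in control. Cst7, a cathepsin inhibitor, was at 2.03 FPKM in Setd2 KO and 3.63 in control, and Xcl1, a chemokine of activated lymphocytes, at 1.22 FPKM in Setd2 KO and 3.11 in control from 5 counts in Setd2 KO and 13 in control. The intervals of Fasl, Cst7 and Xcl1 include 1.

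The granule genes were unequal in level in both libraries. Prf1, perforin, the pore protein through which granzymes reach the target cell, had 11 counts in each library, at 0.62 FPKM in the Setd2 KO pool and 0.61 in the control pool. Gzma RNA was thus 206 times as abundant as Prf1 RNA per length in the Setd2 KO pool and 178 times in the control pool, while Gzmb RNA was 49.3 times as abundant in Setd2 KO and 51.4 times in control. The other granzymes of the list had few counts: Gzmk had 11 in the Setd2 KO pool and 7 in the control pool, Gzmm had 7 in each, and Gzmc had 2 in the Setd2 KO pool and 1.01 in the control pool. With so few counts the interval for Prf1 runs from 0.401 and that for Gzmm from 0.305, so that differences of 2-fold could not be detected. Ifng, the interferon of activated T cells, had 0 counts in the Setd2 KO pool and 1 in the control pool, which is under the floor of 3 counts per library. Prf1, the lesser granzymes and Ifng were named after their values were seen.

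**Figure D3:**
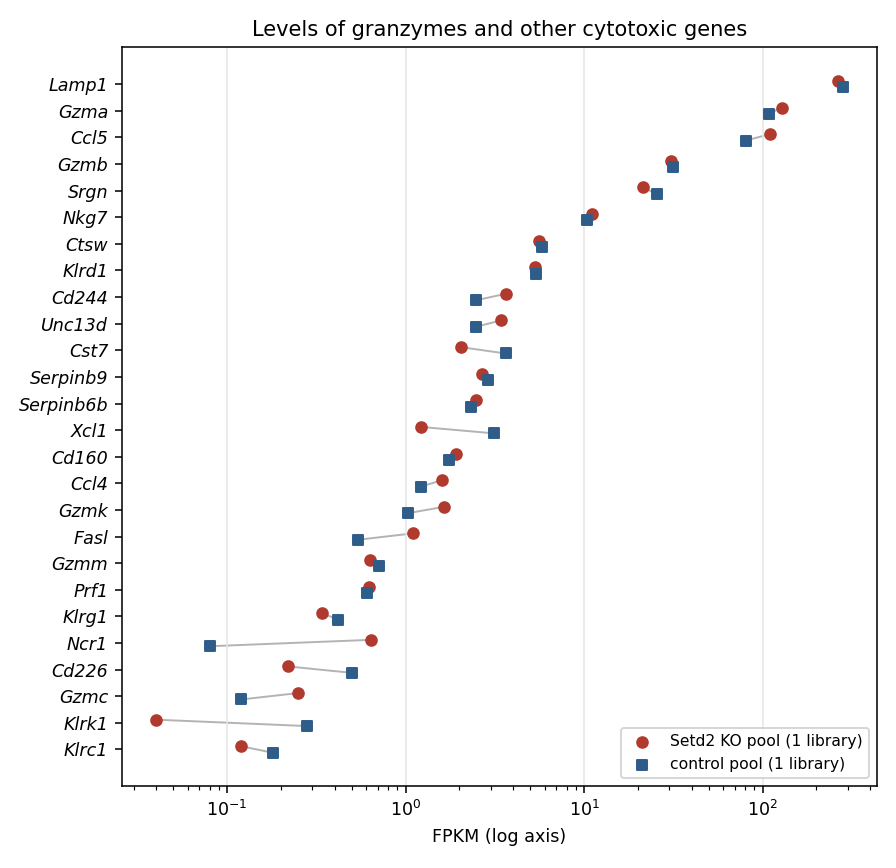
Levels in FPKM (log axis) of 26 cytotoxic genes with counts in both libraries, Setd2 KO pool (circles, drawn slightly above) and control pool (squares), 1 library each; 4 genes listed at 0 in 1 library are not drawn. Gzma, at 127.95 FPKM in Setd2 KO and 108.35 in control, stands far above Prf1, at 0.62 in Setd2 KO and 0.61 in control, and the widest gaps between pools belong to genes under 1 FPKM.

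Of 19 measured receptors for homing, retention and survival in the gut, 0 were higher and 1 was lower by 2-fold, with a median log2 ratio of -0.02. Over all measured genes 2.78% were higher and 1.28% lower by that rule. Cd101, a surface protein of intestinal T cells and myeloid cells, was at 0.85 FPKM in the Setd2 KO pool and 1.80 in the control pool, with a ratio of 0.470 (0.277 to 0.777). Ccr7, a chemokine receptor of naive lymphocytes, had 8 counts in the Setd2 KO pool and 19 in the control pool, with an interval from 0.162 that includes 1. It was picked with its values known. Cd69, a marker of tissue-resident T cells that was also picked with its values known, was at 0.86 FPKM in the Setd2 KO pool and 1.69 in the control pool, from 12 counts in Setd2 KO and 24 in control, with a ratio of 0.509 (0.232 to 1.06). Cd7, the most abundant gene of the list, was at 31.96 FPKM in Setd2 KO and 28.29 in control, giving a ratio of 1.13 (0.951 to 1.34). Gpr55, a lipid receptor of intraepithelial T cells, was at 6.14 FPKM in Setd2 KO and 5.23 in control, giving a ratio of 1.17 (0.911 to 1.52). B cells also express Ccr7, and 10 of the 11 measured B cell markers had intervals below 1, against 12.5% of all measured genes. The part of B cells in the Ccr7 value was not tested.

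Ligands and cytokines that the epithelium offers to these T cells showed 0 of 16 measured genes past 2-fold. Their median log2 ratio was -0.15, with 4 intervals above 1 and 5 below, against 28.0% above and 12.5% below over all measured genes. Ccl25, which attracts T cells with the receptor CCR9 to the small intestine, was the most abundant, at 313.49 FPKM in the Setd2 KO pool and 397.07 in the control pool, a ratio of 0.789 (0.751 to 0.829). Il15ra, which presents IL-15 to intraepithelial T cells, was at 7.69 FPKM in Setd2 KO and 5.45 in control, giving a ratio of 1.36 (1.01 to 1.84). Cd1d1, which presents lipids, was at 2.64 FPKM in Setd2 KO and 1.6 in control, with an interval of 0.986 to 2.80. Cd274, the inhibitory ligand PD-L1, was at 2.14 FPKM in Setd2 KO and 3.06 in control, giving a ratio of 0.698 (0.506 to 0.963). The butyrophilin-like genes, which sustain gamma-delta T cells of the gut, went both ways. Btnl2 had a ratio of 1.11 and Btnl6 of 0.901, and both were picked with their values known.

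Transcription factors of the lymphocyte lineages likewise had 0 of 14 measured genes past 2-fold, with a median log2 ratio of 0.07, 4 intervals above 1 and 3 below. Over all measured genes 28.0% of intervals lay above 1 and 12.5% below. Ahr, which intraepithelial T cells need to persist and which epithelial cells also express, was at 9.82 FPKM in the Setd2 KO pool and 7.18 in the control pool, a ratio of 1.37 (1.19 to 1.57). Bcl11b, which maintains T cell identity, was at 3.23 FPKM in Setd2 KO and 2.43 in control, with a ratio of 1.35 (1.10 to 1.67). Runx3, which directs the CD8 and cytotoxic programmes, was at 2.41 FPKM in the Setd2 KO pool and 3.53 in the control pool, a ratio of 0.681 (0.511 to 0.913), and Ikzf1, common to lymphocytes, at 2.47 FPKM in Setd2 KO and 3.34 in control, giving a ratio of 0.764 (0.596 to 0.977). Id3, the most abundant, was at 96.03 FPKM in Setd2 KO and 82.83 in control, and is transcribed in other gut cells as well.

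Genes common to white blood cells, and B cell genes among them, were lower in the Setd2 KO pool, while the interval of the summed T lymphocyte genes other than granzymes included 1. All 15 pan-leukocyte genes had log2 ratios below 0, as deposited and under the median-ratio and TPM scalings, with a median of -0.35. Over all measured genes, 4931 of 13253 log2 ratios were below 0 as deposited. The intervals of 11 pan-leukocyte genes lay below 1, against 12.5% of all measured genes, though 0 were past 2-fold. That background depends on scaling: 1663 genes had intervals below 1 with library totals and 2670 with the upper quartile. Of 11 measured B cell markers, 3 were at least 2-fold lower, against 1.28% of all measured genes. Ms4a1, which encodes CD20, was at 0.90 FPKM in the Setd2 KO pool and 5.73 in the control pool, and Fcer2a, a receptor for IgE, at 0.94 in Setd2 KO and 3.13 in control. None of the 12 B cell markers was at 0, and their FPKM summed to 32.42 in the Setd2 KO pool and 61.47 in the control pool. Summed counts of the 8 members other than granzymes were 1109 in the Setd2 KO pool and 1089 in the control pool, a ratio of 1.04 (0.954 to 1.13), while those of the B cell list were 533.39 in Setd2 KO and 1142.41 in control, a ratio of 0.476 (0.428 to 0.528). The change of the T cell genes relative to the B cell genes was 2.18-fold (1.91 to 2.50), and relative to the pan-leukocyte genes 1.32-fold (1.20 to 1.45). Neither comparison of sums was set in advance. The B cell list had the lowest ratio of the summed lists, so the first interval, made for a pair set in advance, is too narrow. The B cell list and the pan-leukocyte list share cells, since B cells express most genes of both, and whether the pools took in equal amounts of lymphoid follicle was not tested.

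Markers of the other cells that whole intestine holds were counted in the same way. Mast cell genes were higher in the Setd2 KO pool, with 3 of 5 measured genes past 2-fold and all 5 intervals above 1. Of all measured genes 2.78% were at least 2-fold higher and 28.0% had an interval above 1. The FPKM of the 10 mast cell markers summed to 69.26 in the Setd2 KO pool and 16.46 in the control pool, and Tpsb2 and Ms4a2 were at 0 in the control pool. The protease gene Mcpt1 led the list, at 38.91 FPKM in the Setd2 KO pool and 6.85 in the control pool. Mast cells can express granzymes, and their part in the Gzma and Gzmb values was not tested. Among 3 measured innate lymphocyte genes 1 was at least 2-fold higher, Il1rl1, the IL-33 receptor, which mast cells also carry, at 9.83 FPKM in Setd2 KO and 3.60 in control. Of the other lists, 0 of 18 measured myeloid markers, 0 of 7 plasma cell markers and 0 of 10 epithelial markers were past 2-fold. The summed counts of the plasma cell list gave a ratio of 1.22 (1.19 to 1.25), with 6 of 7 log2 ratios above 0. Those of the epithelial list gave 0.951 (0.944 to 0.959) and those of the myeloid list 0.984 (0.937 to 1.03).

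**Figure D4:**
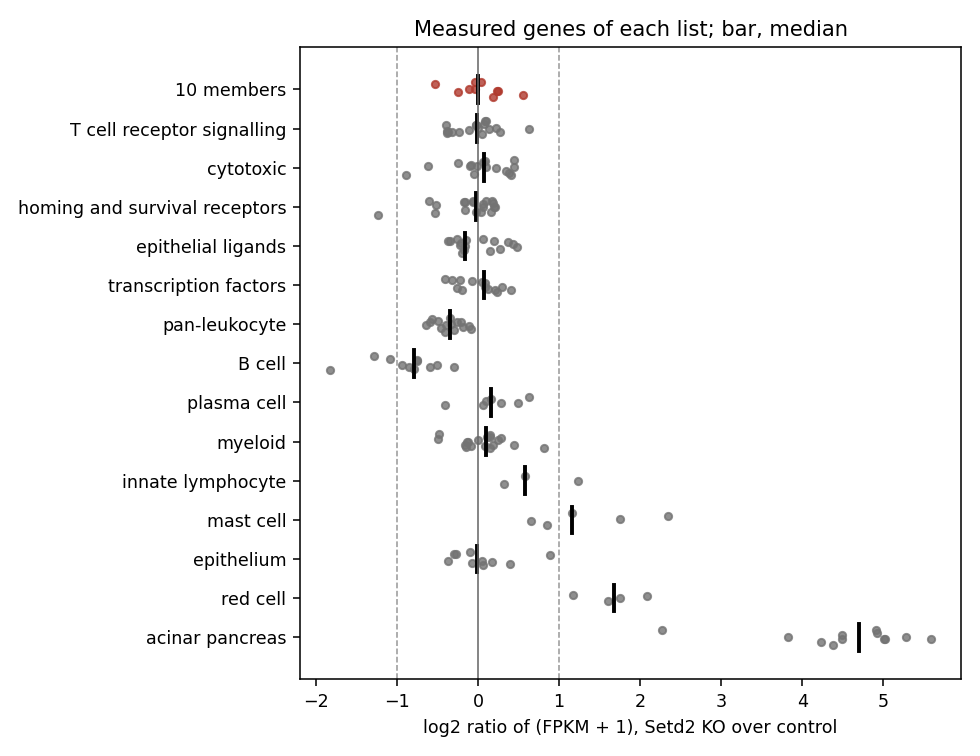
Log2 ratio of (FPKM + 1), Setd2 KO over control, for every measured gene of each list (points) with the list median (bar); dashed lines mark 2-fold. The 10 members (red) lie between -0.53 and 0.56, the B cell genes all lie below 0, and the mast cell, red cell and pancreas genes all lie above 0.

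The name intraepithelial holds for these values only as far as the markers go. Genes that define T cells (Cd3e, Cd3g, Cd3d, Lck) and genes typical of the intraepithelial compartment (Itgae, Cd7, Gzma, Gzmb, Cd8a) were present in both libraries, and Cd8b1 was low beside Cd8a. Which cells the Itgae and Cd8a RNA came from was not tested. Natural killer receptors also had some counts, with Klrd1, which T cells carry too, at 39 in the Setd2 KO pool and 40 in the control pool, and Ncr1, of innate lymphocytes, at 8 in Setd2 KO and 1 in control. Klrb1c had 0 counts in the Setd2 KO pool and 5.24 in the control pool, while Klre1 had 5 in Setd2 KO and 0 in control. These natural killer genes were named after their values were seen. The constant regions of the T cell receptor genes would separate alpha-beta from gamma-delta T cells. Those listed for this purpose were not found by symbol in the series table, so they were not analysed.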

How the data were processed

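RNA of whole intestine was sequenced in 2 libraries, Setd2 KO and control, each of 3 pooled littermates. Per the labels' protocols, total RNA was sequenced on a HiSeq, reads were mapped to mm10 with BWA or Bowtie (Bowtie2 in the submitters' processing notes), and RSEM quantified genes; versions and strand are not given in the sources used here. Per the file headers, the authors deposited expected counts (RSEM estimates, rounded here for intervals), transcript lengths and FPKM. Per-sample columns left unused numbered 0.

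A gene was taken as measured when either library reached an FPKM of 1. Log2 ratios used a pseudocount of 1 FPKM, which understates differences of low genes. Count ratios were scaled to library totals, with exact 95% intervals; ratios between genes used the exact conditional interval of the odds ratio (scipy 1.17.1). Intervals, and the floor of 3 counts (0.347 CPM in the Setd2 KO library, 0.341 in the control library), cover counting error only. The intervals and the 2-fold rule were run on simulated Poisson counts. Those counts hold counting error only, so differences between mice or tissue samples were not covered.

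The members and the 14 other lists were chosen with earlier results of these data known. The naming rule took all members and, per list, genes past 2-fold (at most 6), the 2 highest, the 2 lowest and the most abundant; for lists of other cell types some of these are given as counts only; others are named as chosen after seeing values. Promoter sequences are RefSeq's (GRCm38.p6), coordinates RefSeq's, exon overlaps GENCODE M21. Alternatives were other pseudocounts, filters and scalings. Some genes of the lists are not reported here by name.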

Additional observations from a re-analysis of the deposited data

How the results depend on the processing

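With 1 library per pool, no replicate could be left out, and no difference between mice can be seen. No paired analysis was possible because each pool had 1 library. Log2 ratios of the 10 genes stayed within their own counting intervals under all 6 alternatives, 1 of them chosen after seeing the data (library totals without pancreas and red cell genes); Cd3g alone changed sign, ranging from -0.04 to 0.05. The members' median log2 ratio, 0.0004 as reported, was -0.08 under median-ratio scaling. Members past 2-fold stayed at 0 under every alternative. The number of members with an interval above 1 was 1 with upper-quartile scaling, where the interval of Gzma reached 0.999; over all measured genes the numbers were then 2422 above 1 and 2670 below. Genes past 2-fold numbered 699 higher and 282 lower with a pseudocount of 0.1 FPKM, 758 and 301 with 0.01, and 191 and 84 with a filter of FPKM 5. Scaled to the summed pan-leukocyte counts, whose own ratio was 0.786, the ratio was 1.44 for the CD3 and zeta chains, 1.22 for the CD8 chains, 1.42 for the granzymes, 1.47 for Itgae and 1.57 for Cd4, with intervals above 1 for each, while that of Lck was 0.835 with an interval (0.639 to 1.09) that includes 1. Of 98 list medians under alternatives, 7 moved outside the order-statistic range of the list, among them T cell receptor signalling, at -0.38 with a filter of FPKM 5, and the B cell list, at -1.58 with a pseudocount of 0.1 FPKM. Among the 10 members depth limits Cd8b1 most; Prf1 and the lesser granzymes had fewer counts still.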
